A study of Mus musculus with 4 samples.

Results

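The genes described here encode the subunits of the proteasome in primary mouse microglia treated with epigallocatechin gallate (EGCG), a green tea flavan-3-ol that has been described elsewhere as a proteasome inhibitor. They were picked by a rule on gene names that uses no measured value, as protein-coding genes whose symbol is Psma, Psmb, Psmc or Psmd followed by a number, without the interferon-inducible catalytic subunits Psmb8, Psmb9 and Psmb10. This gave 36 genes of the 54532 in the deposited count tables, 22046 of which were protein-coding. The question was whether the subunit genes rose together in EGCG, since cells are known to answer a blocked proteasome by making more of it.

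RNA was measured in 4 libraries of cultured CD1 mouse microglia, 2 from cultures given 1 µM EGCG for 24 h and 2 from cultures given the DMSO vehicle for the same time. All cultures were grown from mixed glia of newborn male pups, the astrocyte layer was taken off with trypsin, and the remaining cells were kept in serum-free medium with IL-34, TGFβ2 and GM-CSF, so both groups were exposed to these factors. Each vehicle library shares a replicate number and a deposited table with 1 EGCG library. The labels call the replicates biological and do not say whether cultures of the same number came from the same pups, so p-values measure the spread between these libraries. How many pups went into a culture is not given in the sources used here.

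The proteasome is the large protease that degrades proteins tagged with ubiquitin. Its barrel-shaped core is built from outer rings of alpha subunits, which form the gate, and inner rings of beta subunits, of which Psmb5, Psmb6 and Psmb7 carry the cutting sites. A regulatory cap sits on the barrel, with a ring of ATPases that unfold the substrate, a few further base subunits that receive it, and a lid that removes the ubiquitin chain. When the proteasome is inhibited, the membrane-bound transcription factor Nfe2l1 (also called NRF1) is released and raises the subunit genes through antioxidant response elements in their promoters. In microglia the proteasome also produces the peptides presented on MHC class I molecules.

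The promoters of the subunit genes are shown first because the question concerns a response through them. RefSeq promoters of GRCm38.p6, each reaching from 250 bases before to 50 bases after the transcription start, were matched by symbol to 29 of the 36 genes, which together had 31 promoters. The core of the antioxidant response element was searched as TGACNNNGC on both strands and occurred in 5 of the 31 promoters, or 16.1%, against 12.4% of all 32851 promoters in the table. The 5 genes were Psmb5, Psmb6, Psmc6, Psmd12 and Psmd9. In the stretches below, each read along the gene's strand, the matching letters are in capitals, and in Psmc6 and Psmd12 they lie on the opposite strand, so the core reads as its reverse complement.
Psmb5 (minus strand, chr14:54618004-54618072): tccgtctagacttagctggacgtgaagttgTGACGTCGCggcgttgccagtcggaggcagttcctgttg
Psmb6 (plus strand, chr11:70525318-70525356): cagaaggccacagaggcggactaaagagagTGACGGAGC
Psmc6 (plus strand, chr14:45329574-45329635): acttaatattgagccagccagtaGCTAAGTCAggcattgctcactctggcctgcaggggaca
Psmd12 (plus strand, chr11:107479278-107479319): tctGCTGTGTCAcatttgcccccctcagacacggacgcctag
Psmd9 (plus strand, chr5:123228129-123228189): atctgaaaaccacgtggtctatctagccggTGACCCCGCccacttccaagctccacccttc
The match began 47 bases before the transcription start in Psmb5, 9 in Psmb6, 227 in Psmc6, 247 in Psmd12 and 31 in Psmd9. By the GENCODE M21 gene models, the stretches of Psmb6, Psmc6 and Psmd12 lay upstream of the gene, that of Psmb5 reached 19 bases into its first exon, and that of Psmd9 lay inside the gene and outside its exons.

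A further motif, the ETS family core CCGGAAG, was searched after the promoters had been seen and occurred in 11 of the 31 promoters, or 35.5%, against 8.86% of all promoters. ETS proteins are a large family of transcription factors that bind the promoters of many housekeeping genes. These promoters belonged to 10 genes, of which the non-ATPase base subunit Psmd2 and the lid subunit Psmd11 are shown, with the core in capitals on the opposite strand of both.
Psmd2 (plus strand, chr16:20651596-20651651): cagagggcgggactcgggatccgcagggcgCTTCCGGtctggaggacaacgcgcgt
Psmd11 (plus strand, chr11:80428574-80428614): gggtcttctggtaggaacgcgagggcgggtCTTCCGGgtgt
The cores began 26 and 11 bases before the transcription start, upstream of both gene models. A match is a description of the letters, and no binding was measured.

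Total counts were 33805071 to 36307930 in 3 libraries and 54970300 in EGCG replicate 2, and a count of 3 in a library, taken here as the floor, corresponded to 0.0546 to 0.0887 CPM (the count relative to the library total) before TMM scaling. All other CPM values are over the TMM-scaled total. Microglia markers summed to between 4296 and 5236 CPM, whereas astrocyte markers summed to at most 19.4 CPM. A list of 6 stromal markers, mainly collagens, summed to 422 (vehicle) and 1.40 CPM (EGCG) in replicate 1 and to 160 (vehicle) and 176 CPM (EGCG) in replicate 2. All 6 were lower in EGCG within replicate 1, where Lum was at 0, and 4 of 6 within replicate 2. The summed oligodendrocyte-lineage markers stood at 73.2 to 77.2 CPM, endothelial markers at 0.905 to 16.8 CPM with Cldn5 at 0 throughout, and neuronal markers at 0.955 to 18.5 CPM. The part of these differences in the values below was not tested, and in bulk RNA fewer cells of a type and less RNA per cell cannot be told apart.

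The proteasome genes together took 0.333% of all counts in Vehicle replicate 1 (95% Wilson interval 0.331 to 0.335%) and 0.341% in EGCG replicate 1 (0.340 to 0.343%). In replicate 2 they took 0.306% in vehicle (0.304 to 0.308%) and 0.314% in EGCG (0.313 to 0.316%). The share was thus slightly higher in EGCG within each replicate, and both replicate 1 libraries lay above both replicate 2 libraries. These intervals cover counting error only.

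Across genes, levels were compared as TMM-scaled CPM per kilobase of the gene model in the deposited tables, averaged over the 4 libraries. The core subunits Psmb6 (88.1) and Psma6 (88.0) and the lid subunit Psmd8 (87.6) stood highest, followed by Psmd2 (72.4), and the range over the libraries was 78.3 to 99.6 for Psmb6, 80.4 to 94.7 for Psma6 and 65.8 to 110 for Psmd8, so the order of these 3 did not exceed their spread. Leaving out the tissue-restricted Psma8 and Psmb11, the lowest member of the alpha ring was Psma3 (18.3), that of the beta ring Psmb1 (23.0), that of the ATPase ring Psmc2 (18.6) and that of the lid Psmd11 (11.5). With the length of the longest coding transcript, Psma3 and Psmd11 remained the lowest of their groups. The lowest beta subunit was then Psmb5 (45.1) and the lowest ATPase Psmc6 (42.0). These levels leave out near-identical copies, which held 34.3% of the summed counts for Psma3 and 43.3% for Psmb5. The lowest ranks of Psma3 and Psmb5 are therefore uncertain. The base chaperones, which help assemble the cap and leave it, were low, with Psmd5 at 5.32 and Psmd9 at 3.01, while Psmd10 (gankyrin) reached 25.7. Without those 2 forms, the highest level was 32.3 times the lowest, or 24.8 times with the transcript length, under which Psmb6 remained first at 206.7. Psma8, an alpha subunit known from testis, was at 1.84 on the same scale, and Psmb11, the catalytic subunit of thymic epithelium, had 1 count in Vehicle replicate 2 and 0 in the other libraries. Psmb11 was the 1 member not tested, and the other 35 passed the filter of 10 counts summed over the libraries.

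**Figure D1:**
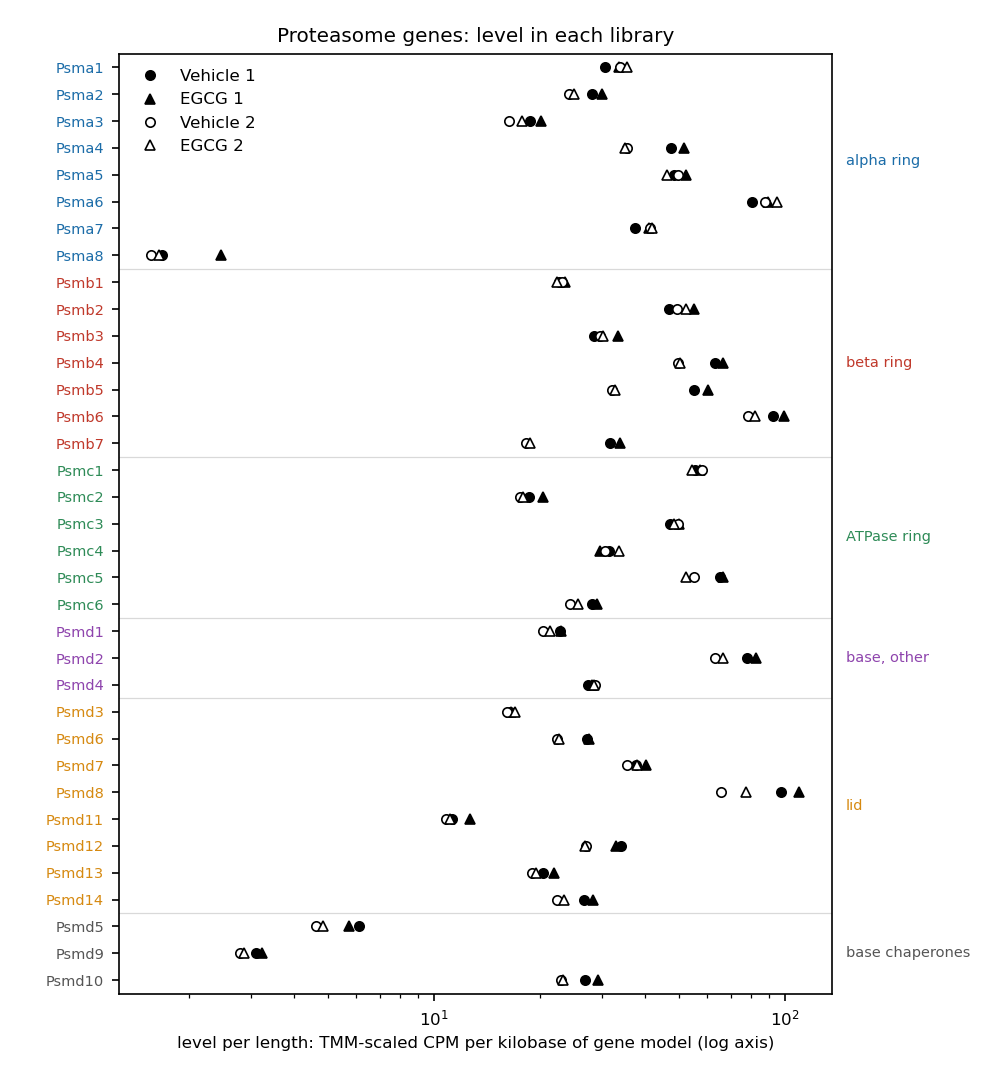
Level per length of the 35 proteasome genes tested, in TMM-scaled CPM per kilobase of gene model on a log axis, with 1 symbol per library (circles, vehicle; triangles, EGCG; filled, replicate 1; open, replicate 2). For most genes the 4 symbols lie close together compared with the range over all genes, although the spans of many genes overlap. Psmb5, Psmb7 and Psmd8 show the widest gaps between filled and open symbols among the genes with a level above 10.

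When treatment was fitted alone, 0 of the 35 genes passed an unadjusted p of 0.05 in edgeR's quasi-likelihood F test, in either direction. Across all 13811 genes tested, 0.029% passed as higher and 0.0869% as lower in EGCG. DESeq2 with treatment alone also placed 0 of the 35 under 0.05, where 0.029% of all genes were higher and 0.145% lower. All 35 adjusted p-values were 1. The differences of the 35 genes had a median of 0.07 on the log2 scale, beside 0.01 over all genes tested, and 31 of the 35 differences were positive, beside 54.2% of all genes. The standard errors of the individual genes lay between 0.12 and 0.43 on the log2 scale, and most of the differences were smaller than these. The median over the genes turned to -0.03 without EGCG replicate 1 and to -0.0058 without Vehicle replicate 2. It rose to 0.13 without Vehicle replicate 1 and 0.12 without EGCG replicate 2. Each of these fits leaves the replicates unequal between the groups, so its value also carries the difference between the replicates.

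In edgeR's log2 CPM with a prior count of 2, 25 of the 35 genes, or 71.4%, were higher in EGCG within both replicates, beside 29.9% of all genes tested. Only 1 of the 35, Psmd12, was lower within both, beside 20.6% of all genes. Within replicate 1 there were 32 higher genes (58.5% of all genes tested were higher there), with a median difference of 0.09 against 0.03 over all genes. Within replicate 2 there were 27 (50.6% of all genes), with a median of 0.04 against 0.0018. The count of 25 became 24 with RLE size factors (28% of all genes), 22 under upper-quartile scaling (24.6%) and 20 when only total counts were used (21.1%). Differences over 0.1 within both replicates were found for 3 genes, Psma3, Psma6 and Psmd8, or 8.6% of the list against 8.98% of all genes, and no member passed a fold of 1.5 in both (0.883% of all genes). Both EGCG libraries stood above both vehicle libraries in 5 genes, Psma6, Psmb2, Psmb3, Psmd3 and Psmd7, or 14.3% against 6.39% of all genes, and below both in none (5.51% of all genes). The genes share libraries and scaling, so they are not separate observations of the treatment.

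**Figure D2:**
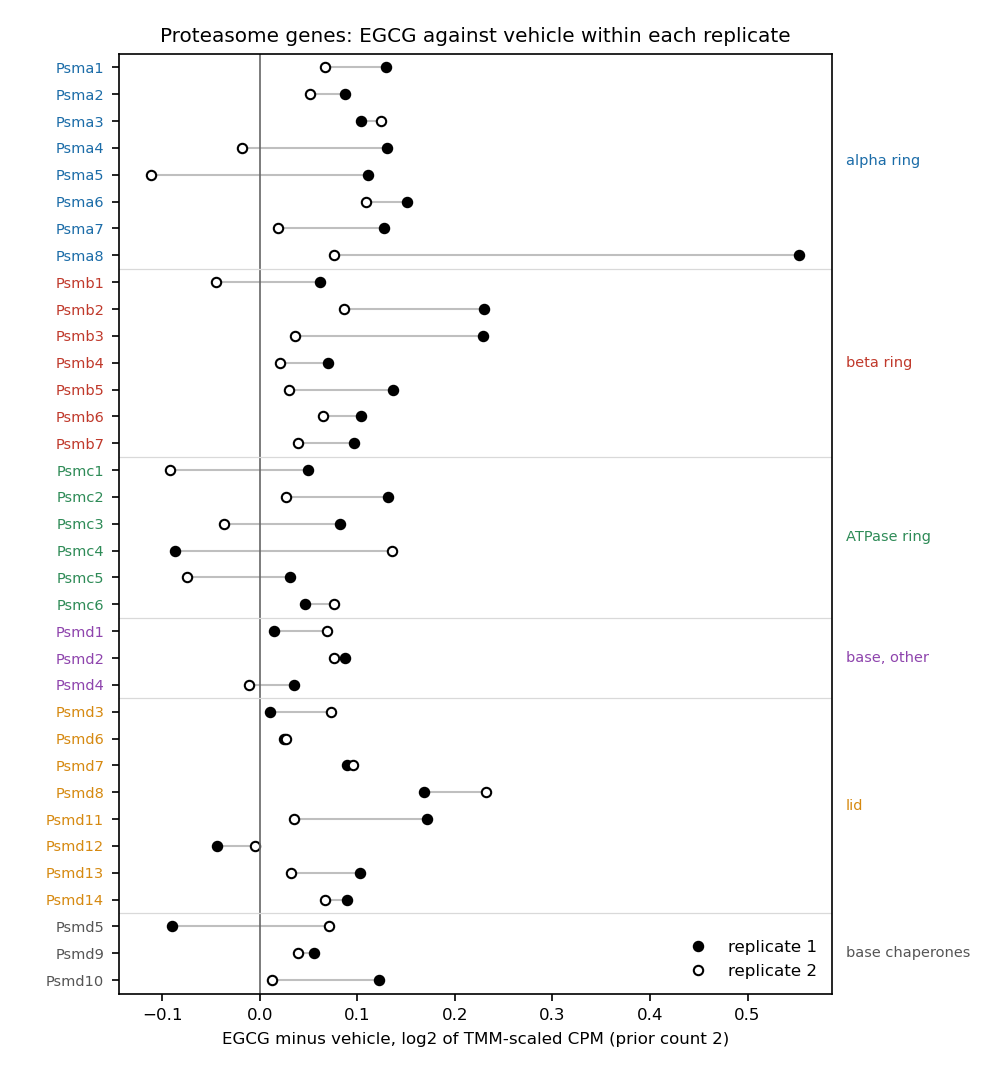
Difference between EGCG and vehicle within replicate 1 (filled) and replicate 2 (open) for the 35 proteasome genes tested, in log2 of TMM-scaled CPM, by place in the complex. In 25 genes both symbols lie to the right of 0, and apart from Psma8 in replicate 1 (0.55) no difference exceeds 0.23.

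Adding the replicate number as a block, which compares EGCG with vehicle inside each deposited table, narrowed the errors. The standard errors fell to between 0.05 and 0.22, and 2 of the 35 genes passed an unadjusted p of 0.05 as higher, Psmd8 and Psma6, or 5.7% against 2.12% of all genes. None passed as lower, beside 1.09% of all genes. No member passed an adjusted p of 0.1 in this fit, where 0.00724% of all genes did, nor in any other comparison of EGCG with vehicle. DESeq2 with the block placed 1 member, Psmd8, under an unadjusted 0.05 as higher (0.666% of all genes) and 0 as lower (0.442%), and 0.0507% of all genes passed its adjusted threshold. The upper ends of the 95% intervals of the blocked fit lay between 0.12 and 0.33 for every member except Psma8, for which the depth was low and the upper end was 0.88. The treatment-only fit gave upper ends of 0.32 to 1.35.

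**Figure D3:**
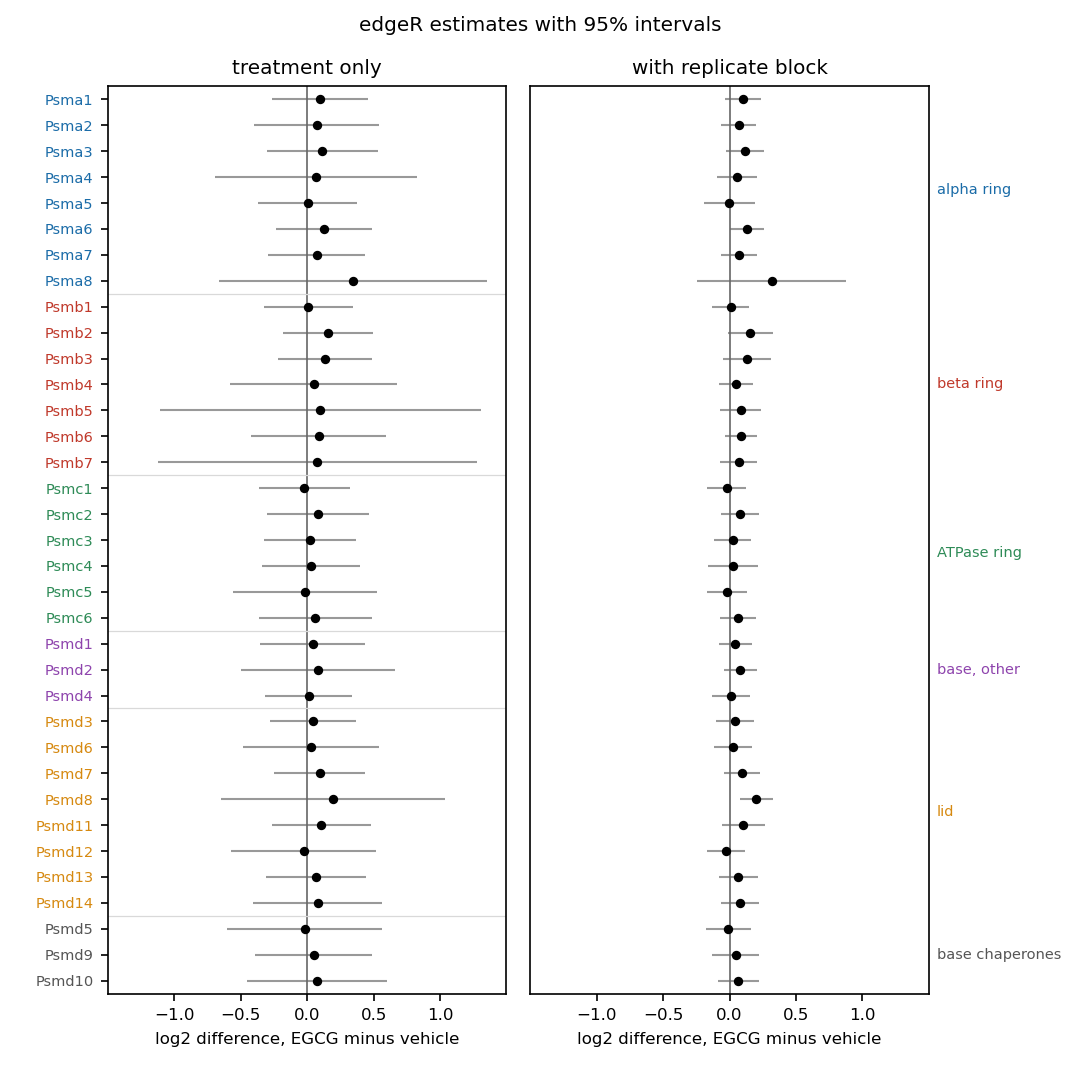
Log2 difference between EGCG and vehicle from edgeR for the 35 genes tested, with 95% intervals, from the fit with treatment alone (left) and with the replicate block (right). All intervals on the left include 0, and on the right those of Psmd8 and Psma6 lie above it.

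Among the alpha subunits, all 8 tested had a positive difference with treatment alone, and 6 were higher in EGCG within both replicates. Over all genes tested, 54.2% had a positive difference and 29.9% were higher within both. Psma6 stood at 99.3 (vehicle) and 110 CPM (EGCG) in replicate 1 and at 108 (vehicle) and 117 CPM (EGCG) in replicate 2. Both EGCG values were above both vehicle values, with means of 104 ± 6.4 in vehicle and 114 ± 4.68 in EGCG (SD, n = 2), although EGCG replicate 1 exceeded Vehicle replicate 2 only narrowly. Its log2 difference was 0.13 (SE 0.13) with treatment alone and 0.13 (SE 0.05, 95% interval 0.0016 to 0.26, adjusted p = 0.995) with the block, by edgeR, and DESeq2 with the block did not place it under the threshold. The treatment-only difference was 0.056 without EGCG replicate 2 and 0.068 without Vehicle replicate 1, with the replicates then unequal between the groups. Psma3 was at 73.1, 78.6, 63.6 and 69.3 CPM in the same order of libraries, higher in EGCG by 0.10 and 0.12, while the replicates differed by more than that. Its value is uncertain, because the processed pseudogene Gm13835 is identical over 685 aligned bases and held 1264, 1306, 1213 and 1999 counts. Psma4 and Psma5 went in opposite directions in the replicates, with differences of 0.13 and -0.02 for Psma4 and 0.11 and -0.11 for Psma5. Psma8 stood at 2.83, 4.18, 2.65 and 2.79 CPM. It was high in 1 library alone, EGCG replicate 1, and its difference of 0.35 had an SE of 0.36.

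Of the beta subunits, all 7 tested had a positive difference (54.2% of all genes tested) and 6 were higher within both replicates (29.9%). Psmb5, which carries the chymotrypsin-like site, the usual target of proteasome inhibitors, stood at 49.4 (vehicle) and 54.3 CPM (EGCG) in replicate 1 and at 28.9 (vehicle) and 29.5 CPM (EGCG) in replicate 2. The replicate 1 libraries were far above those of replicate 2, and the EGCG library was the higher of each pair, by 0.14 and 0.03 on the log2 scale. The means were 39.1 ± 14.5 CPM in vehicle and 41.9 ± 17.6 in EGCG (SD, n = 2), and the log2 difference was 0.10 (SE 0.43) with treatment alone and 0.08 (SE 0.06) with the block. Psmb6, which carries the caspase-like site, was at 173, 186, 147 and 153 CPM, with a difference of 0.09 (SE 0.18) and, with the block, 0.08 (SE 0.05). Psmb7, which carries the trypsin-like site, was at 109, 116, 62.5 and 64.3 CPM, with 0.08 (SE 0.43) and, with the block, 0.07 (SE 0.06). For these 3 catalytic subunits the blocked 95% intervals were -0.07 to 0.24, -0.04 to 0.21 and -0.07 to 0.21.

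The structural beta subunits Psmb2 and Psmb3 were among the 4 genes with the smallest p and a positive difference in the treatment-only fit. Psmb2 stood at 56.3 (vehicle) and 66.1 CPM (EGCG) in replicate 1 and at 59.2 (vehicle) and 62.9 CPM (EGCG) in replicate 2, with means of 57.8 ± 2.06 and 64.5 ± 2.27 (SD, n = 2). Its groups did not overlap, and the difference was 0.16 (SE 0.12, adjusted p = 1 in edgeR), or 0.16 (SE 0.07, 95% interval -0.01 to 0.32) with the block. Psmb3 was at 65.7, 77.0, 68.1 and 69.9 CPM, again without overlap, with a difference of 0.13 (SE 0.13). The gap came almost wholly from EGCG replicate 1, since the difference was 0.23 within replicate 1 and 0.04 within replicate 2. Psmb1 was the flattest of the ring, at 104, 109, 106 and 103 CPM, a difference of 0.01.

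The near-identical copies of Psmb5 matter for its level. The processed pseudogene Gm3375 matched it at 98.9% identity and held 1251, 1200, 865 and 1294 counts in the same order of libraries, so that the copies made up 43.3% of the summed counts of gene and copies. With those counts added, EGCG exceeded vehicle by 0.07 in replicate 1 and 0.01 in replicate 2, and Vehicle replicate 2 still lay below Vehicle replicate 1 (log2 difference -0.74). Copies held 34.3% of the summed counts for Psma3, 13.0% for Psma5, 9.39% for Psmd11, 5.78% for Psmb3 and 2.90% for Psma4, and at most 1.01% for the other genes with a copy. Psmb7 overlaps Nek6 on the opposite strand over 6571 bases, and Nek6 held 6775, 7179, 6075 and 10008 counts. Psmc3 overlaps Slc39a13 over 4579 bases and Psmd1 overlaps Htr2b over 12945 bases, also on the opposite strand. On the same strand, Psma2 overlaps the protein-coding AW209491 over 8943 bases, which held 304, 344, 348 and 568 counts. Psmd13 overlaps the processed pseudogene Gm15542 over 1194 bases, also on the same strand, with 226, 229, 159 and 318 counts. The libraries were strand-specific, but whether strand was used in counting is not given in the sources used here. Strand would not separate genes that share it. The counts of these overlapping genes are therefore uncertain.

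Of the 6 ATPases, 4 had a positive (54.2% of all genes tested) and 2 a negative difference, and 2 were higher within both replicates (29.9%). Their median difference was 0.05 within replicate 1 and -0.0049 within replicate 2. Psmc1, which helps open the gate of the core, stood at 107 (vehicle) and 111 CPM (EGCG) in replicate 1 and at 112 (vehicle) and 105 CPM (EGCG) in replicate 2, so that the EGCG library was the higher of the pair in replicate 1 and the lower in replicate 2 (log2 difference -0.02, SE 0.12). Psmc5 behaved likewise, at 91.0, 93.0, 76.5 and 72.6 CPM (-0.02, SE 0.19). Psmc2 was at 93.7, 103, 88.3 and 89.9 CPM and was higher in EGCG in both replicates (0.08, SE 0.14). Psmc4 differed by -0.09 in replicate 1 and 0.14 in replicate 2.

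All 3 base subunits outside the ATPase ring had positive differences, of 0.01 to 0.08, beside 54.2% of all genes tested. Psmd2, the scaffold on which ubiquitin-like domains dock, stood at 314 (vehicle) and 333 CPM (EGCG) in replicate 1 and at 254 (vehicle) and 268 CPM (EGCG) in replicate 2. EGCG was the higher of each pair by 0.09 and 0.08, a difference of 0.08 (SE 0.21) with treatment alone and 0.08 (SE 0.05) with the block. Psmd1, the other large scaffold subunit, was at 166, 167, 148 and 156 CPM (0.04, SE 0.14). The ubiquitin receptor Psmd4 differed by 0.04 and -0.01 in the replicates.

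In the lid, 7 of 8 genes had a positive difference, and the same number were higher in EGCG within both replicates. The shares over all genes tested were 54.2% and 29.9%. Psmd8 (chr7:29174188-29180701), a lid subunit that joins late in assembly, stood at 298 (vehicle) and 335 CPM (EGCG) in replicate 1 and at 201 (vehicle) and 236 CPM (EGCG) in replicate 2. Each EGCG library was above its own vehicle, by 0.17 and 0.23 on the log2 scale, but both replicate 2 libraries lay below both replicate 1 libraries, so that the groups overlapped (250 ± 68.8 in vehicle and 286 ± 70.2 in EGCG, SD, n = 2). Its difference was 0.19 (SE 0.30) with treatment alone. Without EGCG replicate 1 or without Vehicle replicate 2, which leaves the replicates unequal between the groups, the difference was -0.08. With the block it was 0.20 (SE 0.05, 95% interval 0.07 to 0.33, adjusted p = 0.995) in edgeR and 0.19 (adjusted p = 1) in DESeq2. Psmd12, another lid subunit, was the only gene lower in EGCG in both replicates, at 90.3, 87.6, 71.7 and 71.5 CPM. Those within-replicate differences of -0.04 and -0.0045 were smaller than the blocked SE of 0.06, and Psmd12 carries one of the antioxidant response element matches printed above. Psmd11 was at 71.8, 80.8, 69.2 and 70.8 CPM (0.11, SE 0.13). Psmd14, the deubiquitinase that frees the ubiquitin chain, differed by 0.09 and 0.07.

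Among the chaperones of the base, Psmd5 stood at 44.2 (vehicle) and 41.5 CPM (EGCG) in replicate 1 and at 33.2 (vehicle) and 34.9 CPM (EGCG) in replicate 2, with a difference of -0.02 (SE 0.21). Psmd10 was at 39.6, 43.2, 33.8 and 34.1 CPM (0.07, SE 0.19) and Psmd9 at 22.6, 23.5, 20.3 and 20.9 CPM (0.05, SE 0.16). Psmd5 was the lower in EGCG in replicate 1 and the higher in replicate 2. Psmd9 and Psmd10 were higher in both, as were 29.9% of all genes tested.

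The differences were set beside the promoter matches as a description. The 5 genes with an antioxidant response element match had a median log2 difference of 0.06, with a range of -0.03 to 0.10, and the 23 tested genes that had a promoter without a match had a median of 0.07, with a range of -0.02 to 0.19. Within replicate 1 the medians were 0.06 with and 0.10 without a match, and within replicate 2 they were 0.04 and 0.03. No test was made of these medians.

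For several genes the larger contrast was between the replicates. A comparison of replicate 2 with replicate 1, allowing for treatment and added after the values had been seen, placed 17 of the 35 genes, or 48.6%, lower in replicate 2 at an adjusted p of 0.1 in edgeR, beside 25.7% of all genes tested, and none higher, beside 27.7%. In either direction 53.5% of all genes differed between the replicates. The steepest were Psmb7, with log2 differences of -0.80 between the vehicle and -0.85 between the EGCG libraries, and Psmb5, with -0.77 and -0.88. The log2 difference from that fit was -0.83 for both (SE 0.06 each, adjusted p = 0.000418 for Psmb7 and 0.000529 for Psmb5). Psmd8 (-0.57 and -0.51), Psma4 (-0.41 and -0.56) and Psmb4 (-0.36 and -0.41) followed in the order of the fit. Among the genes close to level were Psmb2 (0.07 and -0.07) and Psmd3 (-0.03 and 0.04). In absolute size the median difference between the vehicle libraries was 0.15 over the 35 genes, less than the 0.38 over all genes tested, and in 21 of 35 genes it exceeded the difference between EGCG and vehicle in either replicate (60%, against 71.3% of all genes). The replicates were deposited in separate tables, and culture and table cannot be told apart here.

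**Figure D4:**
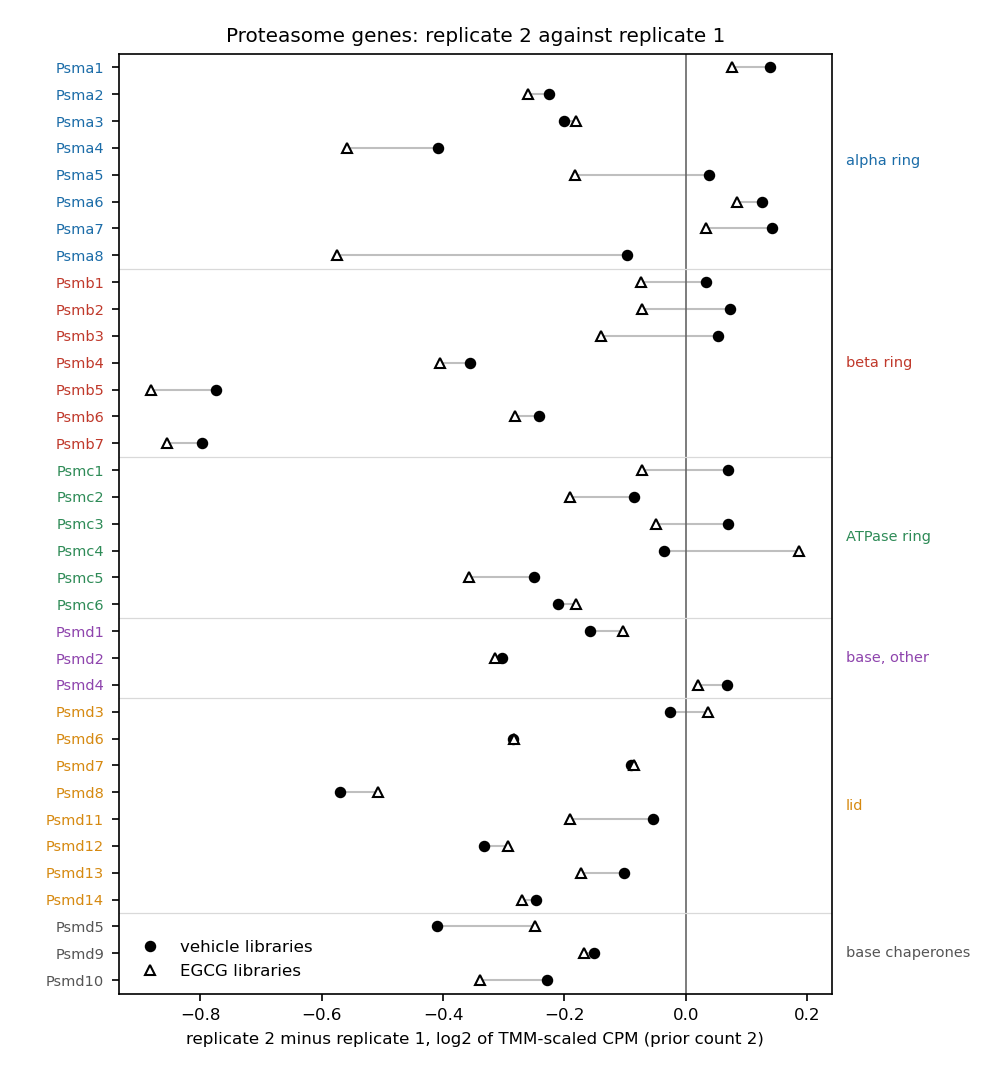
Difference between replicate 2 and replicate 1 for the 35 proteasome genes tested, in log2 of TMM-scaled CPM, between the vehicle libraries (filled circles) and between the EGCG libraries (open triangles). Psmb5 and Psmb7 lie lowest, at -0.77 to -0.88, and the circle and triangle of a gene lie near each other except in a few such as Psma8.

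The catalytic sites can be exchanged for the interferon-inducible subunits Psmb8, Psmb9 and Psmb10, which make the immunoproteasome. The ratio of Psmb8 to Psmb5, in CPM not divided by length, was 3.24 (vehicle) and 3.31 (EGCG) in replicate 1, and 4.97 (vehicle) and 4.68 (EGCG) in replicate 2. The ratio of Psmb9 to Psmb6 was 0.212, 0.226, 0.311 and 0.312, and that of Psmb10 to Psmb7 was 0.778, 0.879, 1.28 and 1.23. These ratios compare libraries and do not give the order of the genes in a pair, which depends on length. Per kilobase of gene model in Vehicle replicate 1, Psmb8 stood at 58.55 and Psmb5 at 54.95. Psmb10 stood at 49.58 and Psmb7 at 31.77 there, while Psmb9 remained below Psmb6. Averaged over the libraries, Psmb7 was at 25.7 per kilobase of gene model but at 75.8 with its longest coding transcript. The transcript length was not applied to Psmb8, Psmb9 and Psmb10, so the order of Psmb10 and Psmb7 is uncertain. The near-identical copies of Psmb5, with 43.3% of the summed counts, are left out of its ratio. All 3 ratios were higher in both libraries of replicate 2 than in either of replicate 1, and within a replicate EGCG moved them by at most 0.18 on the log2 scale, upwards in replicate 1 for all 3 and downwards in replicate 2 for Psmb8 and Psmb10. The 5 genes of the immunoproteasome and its PA28 cap (Psmb8, Psmb9, Psmb10, Psme1 and Psme2) had a median difference of 0.20 within replicate 1 and -0.0039 within replicate 2, beside 0.03 and 0.0018 over all genes tested. None passed a p of 0.05 in edgeR with treatment alone (0.029% of all genes higher, 0.0869% lower) or with the block (2.12% higher, 1.09% lower).

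The wider pathway was read from a list of 44 related genes, of which 43 were analysed here and tested. It held the 5 genes of the immunoproteasome and PA28 given above, and the proteasome subunits Adrm1 and Sem1, which the name rule does not pick. It also held the other regulatory caps, assembly factors, bound enzymes, shuttle factors and the p97 complex that extracts substrates. The rest were factors that control subunit transcription and genes of proteotoxic stress. Within replicates 1 and 2, Adrm1 differed by 0.02 and -0.03 and Sem1 by 0.22 and -0.22. With treatment alone, 0 of the 43 passed a p of 0.05 in edgeR, beside 0.029% of all genes as higher and 0.0869% as lower. With the block 3 passed as higher (2.12% of all genes did) and 0 as lower (1.09%). Their median difference was 0.03 in both fits. Psmg3, an assembly factor of the alpha ring, stood at 3.38 (vehicle) and 4.56 CPM (EGCG) in replicate 1 and at 3.90 (vehicle) and 5.37 CPM (EGCG) in replicate 2, on 111 to 296 counts a library. Both EGCG values were above both vehicle values (0.44 with the block in edgeR, SE 0.16, 95% interval 0.05 to 0.84, adjusted p = 0.995), and DESeq2 with the block did not place it under 0.05. The other 4 assembly factors had blocked differences of -0.07 to 0.12.

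Nfe2l2 (NRF2), a relative of Nfe2l1 that answers to oxidants and electrophiles, stood at 608 (vehicle) and 738 CPM (EGCG) in replicate 1 and at 474 (vehicle) and 561 CPM (EGCG) in replicate 2. EGCG was the higher of each pair, by 0.28 and 0.24, and the difference was 0.26 (SE 0.24) with treatment alone and 0.26 with the block (SE 0.06, 95% interval 0.12 to 0.40, adjusted p = 0.995) in edgeR, with an adjusted p of 0.207 in DESeq2. The treatment-only value was 0.053 without EGCG replicate 1 and 0.076 without Vehicle replicate 2. It was 0.42 without EGCG replicate 2 and 0.45 without Vehicle replicate 1. These fits leave the replicates unequal between the groups. Nfe2l1 itself was at 283, 291, 378 and 349 CPM, higher in EGCG in replicate 1 by 0.04 and different by -0.11 in replicate 2 (blocked difference -0.04, SE 0.06). Ddi2, the protease that activates it, differed by 0.05 and -0.16. Nfe2l1 is regulated largely after transcription, which these counts do not show.

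Of the 9 stress genes that commonly rise with unfolded or undegraded protein, 1 passed with the block as higher, beside 2.12% of all genes, and 0 as lower, beside 1.09%. Atf3 stood at 418 (vehicle) and 463 CPM (EGCG) in replicate 1 and at 313 (vehicle) and 352 CPM (EGCG) in replicate 2, the EGCG library being the higher of each pair (0.16 with the block in edgeR, SE 0.05, 95% interval 0.03 to 0.29, adjusted p = 0.995). The heat shock genes Hspa1a and Hspa1b fell on opposite sides in the replicates, with differences of -0.21 and 0.42 for Hspa1a and -0.44 and 0.42 for Hspa1b. The ubiquitin-binding adaptor Sqstm1 differed by -0.03 and -0.10 and the haem oxygenase Hmox1 by -0.01 and -0.10, and neither passed the test. Ddit3, a transcription factor of the unfolded protein response, was higher in EGCG by 0.09 and 0.12 without passing, and Bag3, Dnajb1 and Zfand2a had blocked differences of 0.0018 to 0.05.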

How the data were processed

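Poly-A RNA of 4 microglia libraries was analysed, 2 per group, from strand-specific libraries made by the authors. The authors deposited raw counts per gene, not normalised, in 1 table per replicate, after aligning reads to GRCm38.p6 with HISAT2. The deposited tables also give a gene length in bases, which was used for levels per length. The counting program, its annotation and its treatment of reads that match several genes are not given in the sources used here, which bears on every gene that has a close copy. Replicate numbers came from the labels, and a sample sheet of the study ties each library to its table.

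The 54532 genes shared by the tables were joined by identifier, and 697 and 329 loci assembled separately in each table were left out. The 13811 protein-coding genes whose counts over the 4 libraries added up to 10 or more were fitted in R 4.3.3 with edgeR 4.0.16 (TMM factors, quasi-likelihood F test, two-sided, treatment as the only term, as in the study's design, with Benjamini-Hochberg adjustment). Thresholds were an unadjusted p of 0.05 and an adjusted p of 0.1. Alternatives were the replicate block, DESeq2 1.42.0, other normalisations and filters, all biotypes, and leaving out each library. Copies were searched with BLAST 2.17.0 at 90% identity over 200 bases. For 2 against 2 libraries the smallest two-sided permutation p is 0.333.

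The members and the lists of related and marker genes were chosen with earlier results of these data known. Genes named with values in every library were the catalytic and tissue-restricted subunits, the 4 smallest treatment-only p-values in each direction, all members and related genes under 0.05 in an edgeR fit, and the highest and lowest level of each subcomplex. Others were named after their values were seen.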

Additional observations from a re-analysis of the deposited data

How the results depend on the processing

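For EGCG against vehicle, no proteasome gene passed an adjusted p of 0.1 under any alternative run. The count of genes higher in EGCG at an unadjusted p of 0.05 was 0 with treatment alone (0.029% of all genes tested). It was 2 with the replicate block (2.12%) and 1 with the block in DESeq2 (0.666%). With the block and edgeR's newer dispersion method (tried after seeing the data) it was 2, and the share over all genes is not given for that fit. The block changed no other call of a member. Whether libraries of the same number form pairs could not be settled from 2 pairs. The count higher within both replicates was 25 (71.4%, beside 29.9% of all genes tested), and 3 for differences over 0.1 (8.6%, beside 8.98%). The median difference of 0.07 ranged from -0.033 to 0.13 on leaving out 1 library, which by construction leaves the replicates unequal between the groups. Within replicate 1 the median of 0.09 became 0.046 under upper-quartile scaling and 0.033 when total counts alone were used. Total counts gave 3 genes higher in replicate 2, against 0 with TMM factors (27.7% of all genes tested). The ratio of levels of 32.3 became 24.8 with the longest coding transcript. The planned use of protein lengths was not run.

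Of 345 values for single genes under an alternative, 31 changed sign, 28 of them on leaving out a library. With each library left out in turn, the log2 difference ranged from -0.41 to 0.54 for Psmb5, -0.061 to 0.21 for Psmb6, -0.41 to 0.53 for Psmb7, -0.20 to 0.15 for Psmd12, -0.23 to 0.20 for Psmd5, -0.21 to 0.12 for Psmc5, -0.082 to 0.51 for Psmd8, -0.056 to 0.38 for Atf3, -0.0012 to 0.22 for Psma3, -0.016 to 0.14 for Psmc2, -0.084 to 0.24 for Psmd2, -0.053 to 0.12 for Psmd1, -0.029 to 0.014 for Psmb1, -0.11 to 0.20 for Psmd10 and -0.044 to 0.13 for Psmd9. Among genes that kept their sign, it ranged from 0.056 to 0.18 for Psma6, 0.062 to 0.17 for Psmb3, 0.0076 to 0.17 for Psmd11, 0.29 to 0.56 for Psmg3 and 0.053 to 0.45 for Nfe2l2. Psmb1 was also at -0.010 under upper-quartile scaling, -0.025 with total counts and -0.0020 with 10 counts in every library.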
